A study of Mus musculus with 6 samples.

Results

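The globin genes were followed through RNA sequencing of mouse articular cartilage, the smooth tissue that covers the joint surfaces. They were taken as the rows of the deposited gene table named Hba-a1, Hba-a2, Hba-x, Hbb-bs, Hbb-bt, Hbb-bh1 and Hbb-y, which are 7 of the 33971 genes in the table. All 7 had enough counts to be tested, among 20397 tested genes. Cartilage of wild-type mice was compared at 2 ages, with 3 libraries from 2-month-old and 3 from 18-month-old animals, and no treatment is given for either group. The question behind the design was how gene expression in articular cartilage differs with age.

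Hemoglobin carries oxygen in red blood cells as a tetramer of alpha-type and beta-type globin chains, each holding a heme group. The genes of each type lie in a cluster and are switched during development, so that embryonic genes serve the first red cells of the yolk sac and adult genes serve those made later in liver and marrow. Red cell precursors in marrow hold very large amounts of globin mRNA. Chondrocytes, the cells of cartilage, have also been described as making hemoglobin.

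The alpha cluster lies on chromosome 11 of the mouse build GRCm38, on the plus strand. It holds Hba-x at 32276400 to 32278116, Hba-a1 at 32283511 to 32284465 and Hba-a2 at 32296489 to 32297298. Hba-x encodes zeta globin, the embryonic alpha-type chain, and Hba-a1 and Hba-a2 encode the adult alpha chain. The beta cluster lies on chromosome 7, on the minus strand. It holds Hbb-bt at 103812524 to 103813996, Hbb-bs at 103826534 to 103827928, Hbb-bh1 at 103841637 to 103843164 and Hbb-y at 103851749 to 103853216. Hbb-bs and Hbb-bt encode the adult beta chain, while Hbb-y (epsilon-y) and Hbb-bh1 (beta-h1) encode embryonic beta-type chains. These positions span whole genes as the deposited table gives them, and 6 of the 7 were identical in the mouse annotation GENCODE M21.

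The coding sequences of the paired adult genes were nearly identical, which bears on the split of counts within each pair. Over 429 coding bases Hba-a1 and Hba-a2 differed at 1 position, and over 444 coding bases Hbb-bs and Hbb-bt differed at 1. Both differences leave the amino acid unchanged, at codons 127 and 139. They are C381T between Hba-a1 and Hba-a2 and C417T between Hbb-bs and Hbb-bt, counted from 1 at the A of the start codon, with the first-named gene's base first. The 30 coding bases around each difference are shown 5′ to 3′, with the differing base in capitals:
Hba-a1, coding bases 366 to 395: gcatgcctctctggaCaaattccttgcctc
Hba-a2, coding bases 366 to 395: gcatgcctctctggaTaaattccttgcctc
Hbb-bs, coding bases 402 to 431: ggtggctggagtggcCgctgccctggctca
Hbb-bt, coding bases 402 to 431: ggtggctggagtggcTgctgccctggctca
Of all 150-base stretches of the annotated transcript, the length of 1 read, 48.4% of those of Hba-a1 occur unchanged in Hba-a2 and 65.7% of those of Hba-a2 in Hba-a1. For Hbb-bs and Hbb-bt these shares were 58.7% and 50.7%. The split of reads within each adult pair therefore rests on the counting, and the paired genes' separate values are uncertain.

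The embryonic genes did not share this limit. No 150-base stretch was common to an adult and an embryonic globin transcript, and the longest run in common was 22 bases between Hbb-bs and Hbb-y and 18 bases between Hba-a1 and Hba-x. Coding identity was 74.3% between Hbb-bs and Hbb-y, 74.1% between Hbb-bs and Hbb-bh1, 76.4% between Hbb-bh1 and Hbb-y and 62.0% between Hba-a1 and Hba-x. The first 30 coding bases show the distance, with bases that differ from the adult gene of the same cluster in capitals:
Hbb-bs: atggtgcacctgactgatgctgagaaggct
Hbb-y: atggtgAacTtTactgCtgAGgaAaagAcC
Hbb-bh1: atggtTcacTtCacAgCtgAGgagaaggcA
Hba-a1: atggtgctctctggggaagacaaaagcaac
Hba-x: atgTCTctGATGAAgAaTgaGaGaGCTaTc
Reads of the adult genes could thus be separated from those of Hbb-y and Hba-x over the whole read.

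Total counts lay between 48171507 and 51683577 for libraries of 2-month cartilage and between 55201357 and 59085179 for those of 18-month cartilage, so no globin value is limited by depth except the lowest counts of Hba-x. The labels give no sex, and the study's methods describe its mice as male. Xist, which female cells express, had between 88239 and 102417 counts at 2 months and between 11 and 30 at 18 months. The 2-month counts go against male animals, and sex and age cannot be told apart in any comparison below. Nothing in the labels says how many animals gave a library, and p-values measure the spread between these libraries. Replicate 2 of the 2-month group stood apart in the genes of blood and marrow, and replicate 1 of the 18-month group in those of cartilage, as the values below show. That 2-month library also differed from replicates 1 and 3 in some genes of cartilage and bone. It had 2575 FPKM of the cartilage gene Prg4 against 6097 and 6475, and 714 of the bone gene Bglap against 118 and 90.0. The cartilage gene Comp was close, at 1232 FPKM against 1160 and 1177.

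The adult globins were higher and the embryonic globins lower in 18-month cartilage. Expression is given first as FPKM, the fragments of a gene scaled by its length and by the depth of the library, which allows genes to be compared. Hbb-bs, the most abundant member, had 93.9, 2683 and 298 FPKM in 2-month replicates 1, 2 and 3, and 11352, 15495 and 15494 FPKM in the 18-month replicates. Hbb-bt had 69.9, 1956 and 205 FPKM at 2 months and 8036, 10653 and 10260 FPKM at 18 months. The ages did not overlap for either adult beta gene, and 2-month replicate 2 lay far above the others of its age.

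The adult alpha genes were likewise highest in replicate 2 among the 2-month libraries and lowest in replicate 1 at both ages. Hba-a1 had 65.4, 1340 and 141 FPKM at 2 months and 5269, 6903 and 7002 FPKM at 18 months. Hba-a2 had 56.9, 1256 and 137 FPKM at 2 months and 4647, 5873 and 5800 FPKM at 18 months. In every library the adult genes ranked by FPKM as Hbb-bs, Hbb-bt, Hba-a1 and Hba-a2. By counts Hba-a1 was above Hbb-bt in 2-month replicate 1 (2917 against 2700), so this order depends there on the gene lengths behind FPKM. At 18 months the means were 14113 ± 2392, 9650 ± 1411, 6391 ± 973 and 5440 ± 687 FPKM (SD, n = 3), so that the alpha genes, as neighbours in this order, lay within about 1 SD of each other. The 2-month SDs exceeded the 2-month means for all 4 genes (1025 ± 1440 FPKM for Hbb-bs), so no order of the means can be read there.

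Hbb-bs was the gene ranked 2, 3 and 3 by FPKM among all genes in the 18-month libraries, and ranked 359, 7 and 95 in the 2-month libraries. All 4 adult globins were among the highest 9 genes in each 18-month library.

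The embryonic genes moved the other way. Hbb-y had 86.6, 45.8 and 66.0 FPKM in 2-month replicates 1, 2 and 3, and 13.4, 2.84 and 2.57 FPKM in the 18-month replicates. These FPKM values rest on 3011, 1697 and 2345 counts at 2 months and 569, 114 and 104 at 18 months. The ages were apart, and 2-month replicate 2, the library with the most adult globin at that age, had the least Hbb-y.

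Hba-x had 14.1, 8.27 and 9.33 FPKM at 2 months and 2.84, 0.388 and 0.405 FPKM at 18 months, the values under 1 FPKM from 23 and 25 counts. Hbb-bh1 had 7.77, 6.78 and 6.04 FPKM at 2 months and 3.34, 2.31 and 3.03 FPKM at 18 months. Both genes were lower in every 18-month library than in any 2-month library. For Hbb-y and Hba-x, but less so for Hbb-bh1, 18-month replicate 1 lay above replicates 2 and 3.

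**Figure D1:**
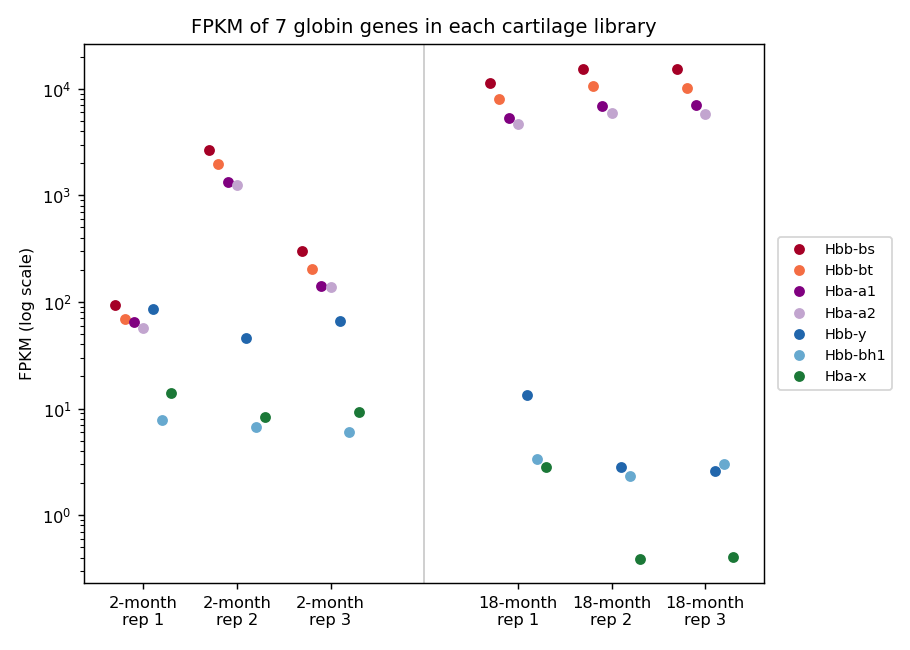
FPKM on a log axis of the 7 globin genes in each of the 6 libraries, with 1 point per gene and library. The 4 adult genes lie between 56.9 and 2683 FPKM at 2 months and between 4647 and 15495 FPKM at 18 months, whereas Hbb-y lies at 45.8 FPKM or more at 2 months and at 13.4 FPKM or less at 18 months.

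In the 2-month libraries embryonic and adult genes could reach like levels. In 2-month replicate 1 Hbb-y was second among the 7 genes, at 0.923 times the FPKM of Hbb-bs. In counts it had 3011 against 3961. The FPKM there implied lengths of 719 bases for Hbb-y and 873 for Hbb-bs, against annotated transcripts of 633 and 628, so the ratio depends on length. The FPKM ratio was 0.0171 and 0.221 in 2-month replicates 2 and 3. At 18 months it was 0.00118, 0.000183 and 0.000166. The order of the embryonic genes by FPKM was Hbb-y, Hba-x and Hbb-bh1 in all 3 2-month libraries, and Hbb-bh1 was above Hba-x in all 3 18-month libraries. In 18-month replicate 3 Hbb-bh1 was also above Hbb-y.

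Fold changes between the ages were tested with edgeR's quasi-likelihood test on counts, with Benjamini-Hochberg adjustment over all 20397 genes, and a gene was called at an adjusted p under 0.05 and a change of more than 2-fold. Of the 7 members 3 were called higher and 3 lower at 18 months, where 14.9% of all tested genes were called higher and 21.3% lower. Hba-a1 rose by a log2 fold change of 3.63 (SE 1.18, adjusted p = 0.0449), Hba-a2 by 3.49 (SE 1.17, adjusted p = 0.0497) and Hbb-bs by 3.78 (SE 1.26, adjusted p = 0.0487). These are 12.4-fold, 11.2-fold and 13.8-fold. Hbb-bt had a log2 fold change of 3.70 (SE 1.25) with an adjusted p of 0.0508 and was not called. The 4 adult genes thus lay on both sides of the threshold with nearly equal changes, and no difference between them follows from it.

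Among the embryonic genes, Hbb-y fell by 3.51 on the log2 scale (SE 0.76, adjusted p = 0.0123, edgeR), which is 11.4-fold. Hba-x fell by 3.22 (SE 0.89, adjusted p = 0.0277), or 9.34-fold, and Hbb-bh1 fell by 1.32 (SE 0.26, adjusted p = 0.00866), or 2.50-fold. The smallest change thus had the lowest adjusted p, as the replicates of Hbb-bh1 were close to each other. In this bulk tissue, fewer cells of a type and less RNA per cell cannot be told apart.

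The calls of the adult genes depended on single libraries. Without 2-month replicate 2, all 4 were called, with log2 fold changes of 5.85 for Hba-a1, 5.71 for Hba-a2, 6.07 for Hbb-bs and 6.03 for Hbb-bt. The highest adjusted p of the 4 was then 0.000859. Without any other single library none of the 4 was called in edgeR, and the log2 fold changes stayed between 2.97 and 3.94. Hbb-y and Hbb-bh1 were called with each library left out in turn, whereas Hba-x was not called without 2-month replicate 1, 2-month replicate 3, 18-month replicate 2 or 18-month replicate 3, with adjusted p from 0.0635 to 0.0744. Without 18-month replicate 1, Hba-x fell by 4.77. Over all genes, the fits without 2-month replicates 1, 2 and 3 called 2672 of 21407, 5007 of 21489 and 2141 of 21356 higher. Those without 18-month replicates 1, 2 and 3 called 2408 of 21536, 2119 of 21396 and 2095 of 21365 higher. Calls of gene lists with 1 library left out are to be read beside these totals.

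**Figure D2:**
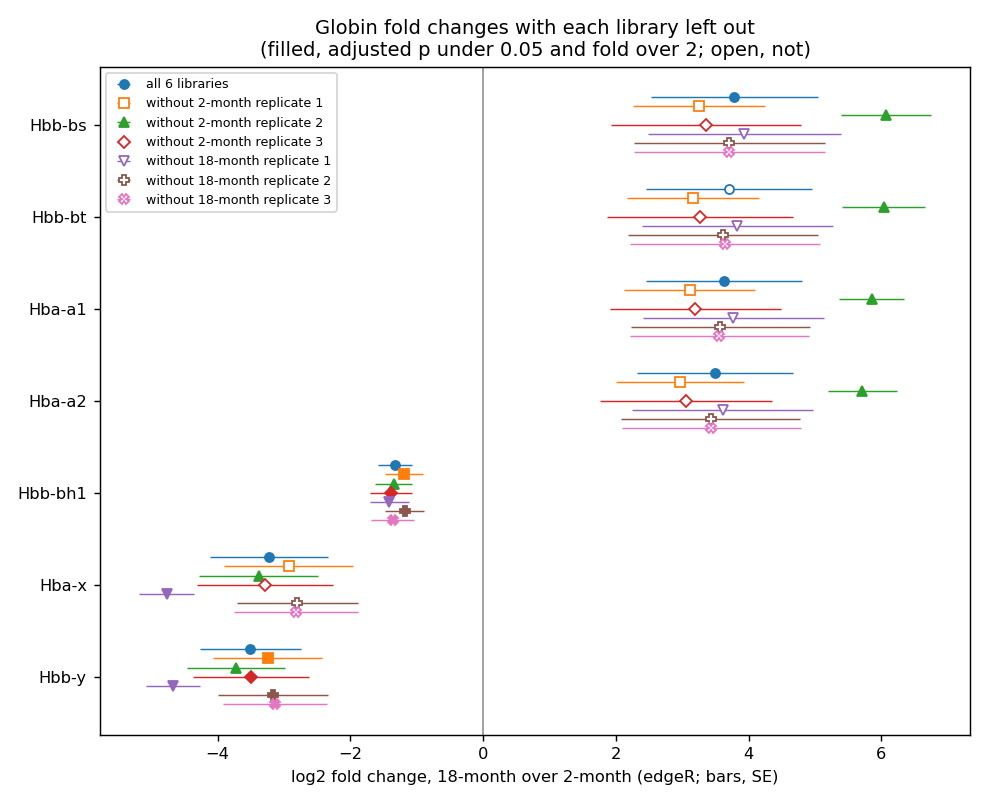
Log2 fold changes of the 7 globin genes, 18-month over 2-month, from edgeR with all 6 libraries and with each library left out, with bars for 1 SE. Filled points were called and open points were not. The adult genes lie near 6 without 2-month replicate 2 and between 2.97 and 3.94 otherwise, and every point of the embryonic genes is below 0.

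The 7 genes together took 0.0324%, 0.612% and 0.0738% of all counts in 2-month replicates 1, 2 and 3, and 2.48%, 3.29% and 3.28% in the 18-month replicates. The mean was 0.239% ± 0.323 at 2 months and 3.02% ± 0.469 at 18 months (SD, n = 3). The ages did not overlap, with an exact two-sided permutation p of 0.1, the smallest that 3 against 3 libraries can give, and 0.167 after Benjamini-Hochberg adjustment over the 5 globin shares and ratios tested this way.

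Embryonic genes made up 25.5%, 0.758% and 8.56% of the globin counts at 2 months, and 0.0606%, 0.0124% and 0.0136% at 18 months. Each 18-month share lay below each 2-month share, and the difference of the means was -11.6 percentage points (exact permutation p = 0.1, n = 3 per age). Leaving out 2-month replicate 1 reduced that difference to -4.63 percentage points. Among FPKM of beta-type genes alone, the embryonic part was 36.6%, 1.12% and 12.5% at 2 months and at most 0.0861% at 18 months. Among alpha-type genes it was 10.3%, 0.317% and 3.25% at 2 months and at most 0.0287% at 18 months.

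The balance of adult alpha to adult beta mRNA, the sum of Hba-a1 and Hba-a2 over the sum of Hbb-bs and Hbb-bt in FPKM, was 0.746, 0.560 and 0.553 at 2 months and 0.511, 0.489 and 0.497 at 18 months. Beta mRNA exceeded alpha mRNA in all 6 libraries. The mean ratio was 0.620 ± 0.110 at 2 months and 0.499 ± 0.0116 at 18 months (SD, n = 3), and the ages did not overlap. The mean log2 ratio differed by -0.30 (exact permutation p = 0.1), and by -0.16 without 2-month replicate 1. That library held the fewest globin counts. With embryonic genes added to both sums, the difference was -0.08 (exact permutation p = 0.2).

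**Figure D3:**
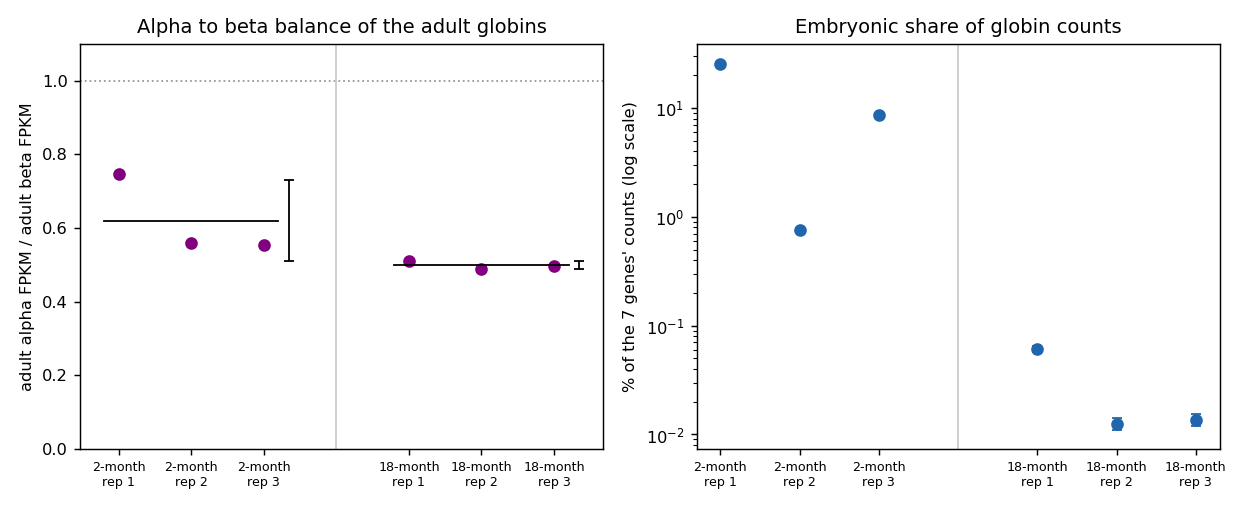
Left, adult alpha over adult beta FPKM in each library, with the mean of each age as a line and its SD as a bar. Right, the percent of the 7 genes' counts that fell on the 3 embryonic genes, on a log axis, with 95% Wilson intervals that cover counting error only. All ratios lie below 1, and the embryonic share is at least 0.758% at 2 months and at most 0.0606% at 18 months.

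Within the adult pairs the proportions hardly moved. Hbb-bt made up 39.7% ± 0.978 of the adult beta counts at 2 months and 38.6% ± 0.792 at 18 months (SD, n = 3), and the libraries overlapped (exact permutation p = 0.2). Hba-a2 made up 43.2% ± 1.37 of the adult alpha counts at 2 months and 41.2% ± 0.764 at 18 months, also with overlap (exact permutation p = 0.2). Given the near-identical coding sequences above, these proportions also depend on how shared reads were assigned.

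The embryonic genes did not keep one proportion. Hba-x stood at 0.163, 0.180 and 0.141 times the FPKM of Hbb-y at 2 months, and at 0.213, 0.137 and 0.158 times at 18 months. The 2 ages overlapped and all 6 values lay within a 1.56-fold range, while Hbb-y itself ranged over 33.4-fold in counts scaled by depth. Hbb-bh1 stood at 0.0897, 0.148 and 0.0916 times Hbb-y at 2 months and at 0.250, 0.812 and 1.18 times at 18 months. All 3 18-month values were higher than the 2-month values. Embryonic alpha and the main embryonic beta gene thus held a near-constant ratio across libraries, and Hbb-bh1 did not share it.

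Promoter sequences are shown for Hbb-bs, Hbb-bt, Hba-x and Hbb-y, and for Hba-a1, whose promoter was 98.0% identical to that of Hba-a2. All 4 adult genes moved together, and so did Hba-x and Hbb-y. Within the adult pairs this also depends on how shared reads were assigned. The 120 bases before the start site in RefSeq (GRCm38.p6) are given 5′ to 3′ on the gene's strand, with matches to motifs on either strand in capitals. The motifs were CACCC, the letters CCAAT, the GATA forms TGATAA as well as AGATAA, the TATA form TATAAA and its variant CATAAA:
Hba-a1, chr11:32283552-32283671, plus strand: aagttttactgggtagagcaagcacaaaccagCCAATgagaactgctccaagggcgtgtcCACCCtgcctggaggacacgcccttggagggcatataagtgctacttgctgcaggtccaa
Hba-x, chr11:32276480-32276599, plus strand: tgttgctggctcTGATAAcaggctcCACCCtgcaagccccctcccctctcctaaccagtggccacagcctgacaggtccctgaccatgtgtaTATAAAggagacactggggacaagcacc
Hbb-bs, chr7:103827929-103828048, minus strand: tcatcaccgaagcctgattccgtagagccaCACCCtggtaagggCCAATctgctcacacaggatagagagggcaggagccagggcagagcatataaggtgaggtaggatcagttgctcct
Hbb-bt, chr7:103813924-103814043, minus strand: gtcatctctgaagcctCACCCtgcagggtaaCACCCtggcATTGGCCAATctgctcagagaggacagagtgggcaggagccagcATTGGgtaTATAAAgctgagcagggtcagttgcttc
Hbb-y, chr7:103853208-103853327, minus strand: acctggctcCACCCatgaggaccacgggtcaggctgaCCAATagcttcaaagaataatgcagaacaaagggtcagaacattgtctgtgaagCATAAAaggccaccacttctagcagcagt
A promoter entry was found for 6 of the 7 members, all but Hbb-bh1. In the 300-base window from 250 bases before the start, CACCC occurred in all 6 of them and in 57.5% of 32851 promoters. CCAAT occurred in 5 and in 37.4% of promoters, and Hba-x was the member without it. TGATAA or AGATAA, letters that GATA factors can bind, occurred in 5 and in 18.6% of promoters. TATAAA or CATAAA occurred in 3 and in 22.8%, and 1 match of TGATAA overlaps 1 of CATAAA in Hbb-y. The promoters of Hbb-bs and Hbb-bt were 70.6% identical, those of Hba-x and Hbb-y 42.1%. Such matches describe letters in these windows and not sites in use.

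The other genes of the globin fold were few and lay far below the adult globins. Hbq1b and Hbq1a, the theta globins of the alpha cluster, had 750 to 1223 and 89 to 188 counts at 18 months. Hbq1b then had 15.4, 22.5 and 26.4 FPKM in replicates 1, 2 and 3, above every embryonic member in the same library. At 2 months, Hbq1b had 3, 129 and 0 counts and Hbq1a had 0, 51 and 4. Their log2 fold changes of 4.37 and 2.73 were not called (edgeR, adjusted p = 0.0736 and 0.142). Hbb-bh3 had 0 counts in every 2-month library and 0, 127 and 36 at 18 months, and Hbb-bh0 had 19 counts in 18-month replicate 2 and 0 elsewhere. Both were below the count filter.

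Outside the clusters, Cygb (cytoglobin) rose by 2.73 on the log2 scale (SE 0.72, adjusted p = 0.0236, edgeR), from 0.141, 0.952 and 0.213 FPKM to 2.96, 2.65 and 3.28 FPKM. Mb (myoglobin, the oxygen store of muscle) fell by 5.52 (SE 0.80, adjusted p = 0.00356), from 183, 672 and 283 counts to 3, 10 and 15. Ngb (neuroglobin) and Adgb (androglobin) stayed at 0.360 FPKM or less in every library and were not called. Of 11 listed genes 8 were in the table and 6 were tested, of which 1 rose, 1 fell and the median log2 fold change was 1.29, beside -0.02 over all tested genes. Without 2-month replicate 2, 3 were called higher, and without 2-month replicate 3 or any 18-month library 0 were. Over all tested genes, 14.9% were called higher and 21.3% lower with all 6 libraries.

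Genes beside the alpha cluster differed among themselves. Snrnp25 had 513, 396 and 490 counts at 2 months and 762, 868 and 1002 at 18 months. Rhbdf1 had 2017, 2181 and 2111 counts at 2 months and 970, 637 and 670 at 18 months. The ages were apart in both, with Snrnp25 higher and Rhbdf1 lower at 18 months, and these genes were named after their values had been seen. Nprl3, whose introns hold the main enhancers of the alpha cluster, had 1227 to 1509 counts at 2 months and 1588 to 1859 at 18 months, with a log2 fold change of 0.03 (adjusted p = 0.860, edgeR). Of the olfactory receptor genes on both sides of the beta cluster, 12 were in the table and none exceeded 18 counts in a library.

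Genes that guard or limit globin production were measured as a list of 8, of which 7 were in the table and tested. Of these 3 rose, 1 fell and 3 were not called, with a median log2 fold change of 0.60. Among all tested genes 14.9% were called higher and 21.3% lower. Eif2ak1, the kinase that holds back globin translation when heme is scarce, rose by 1.69 (SE 0.22, adjusted p = 0.00273, edgeR), from 5.94, 10.2 and 6.03 FPKM to 21.9, 27.0 and 25.8 FPKM. Ube2o, which marks unpaired alpha chains for destruction, rose by 1.35 (SE 0.23, adjusted p = 0.00568), and Usp15, a deubiquitinase, by 1.33 (SE 0.21, adjusted p = 0.00481). Hspa1a, an inducible heat shock protein, fell by 2.53 (SE 0.52, adjusted p = 0.0104). Hspa8 and Ulk1 were not called, at log2 fold changes of 0.60 and -0.11.

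Factors that control globin transcription and the embryonic to adult switch rose in 4 of 13 tested genes and fell in 1, with a median log2 fold change of 3.49. The shares over all tested genes were 14.9% higher and 21.3% lower. Gata1, the leading erythroid GATA factor, had 0, 584 and 13 counts at 2 months and 4089 to 4277 at 18 months. Klf1, which activates adult beta globin, had 7, 597 and 40 counts at 2 months and 4000 to 4309 at 18 months. Neither was called (edgeR, adjusted p = 0.101 and 0.0574), and the ages did not overlap for either. How many of all genes were apart between the ages was not counted. In both genes 2-month replicate 2 was again far above the others of its age, and without it 10 factors were called higher. Only 2 were called when 2-month replicate 1 was left out, 1 when 2-month replicate 3 was, and 0 when any one of the 18-month libraries was.

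Bcl11a, a repressor of embryonic beta-type globins, rose by 2.61 (SE 0.66, adjusted p = 0.0211, edgeR), from 148, 577 and 88 counts to 2105, 1851 and 1745. Gfi1b, a repressor in red cell and platelet precursors, rose by 4.98 (SE 1.64, adjusted p = 0.0470), and Lmo2, a bridging factor of the GATA complex and the highest of the list by FPKM, rose by 3.49 (SE 0.95, adjusted p = 0.0261). Sox6, which represses Hbb-y in red cells and also serves chondrocytes, fell by 1.001 (SE 0.16, adjusted p = 0.00461), from 6700, 5717 and 6357 counts to 3597, 3728 and 4038, a change at the 2-fold limit for a call.

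Heme synthesis and erythroid iron supply rose in 11 of 14 genes and fell in 0, with a median log2 fold change of 2.00. Calls over all tested genes were 14.9% higher and 21.3% lower. The 11 include Alad, Uros, Urod, Cpox, Ppox and Fech, enzymes of the heme pathway. Tfrc, the transferrin receptor, rose by 1.69 (SE 0.50, adjusted p = 0.0340, edgeR). Alas2, the erythroid form of the first enzyme of the pathway, had 1.29, 45.9 and 4.44 FPKM at 2 months and 189, 240 and 243 at 18 months and was not called (log2 fold change 3.70, adjusted p = 0.0558).

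Red cell membrane proteins and enzymes rose in 9 of 23 genes and fell in 0, with a median of 3.43. Of all tested genes, 14.9% were called higher and 21.3% lower. Slc4a1, the anion exchanger of the red cell, had an adjusted p of 0.129 and was not called, nor was Car2, carbonic anhydrase (adjusted p = 0.121). Add2, beta adducin of the membrane skeleton, rose by 3.74 (SE 1.20, adjusted p = 0.0434). Leaving out 2-month replicate 2 gave 22 calls, leaving out 2-month replicate 3 gave 5, and leaving out 18-month replicate 2 or 3 gave 4. Those fits called 5007, 2141, 2119 and 2095 of all genes higher. Of 9 tested genes that clear hemoglobin and heme, 3 rose and 1 fell, with a median of 2.21. Blvrb, biliverdin reductase B, rose by 3.00 (SE 0.49, adjusted p = 0.00513), Lrp1, a receptor for heme bound to hemopexin, fell by 2.59 (SE 0.27, adjusted p = 0.00171), and Hp, haptoglobin, had a log2 fold change of 4.89 that was not called (adjusted p = 0.0581). Without 2-month replicate 2, 7 of the clearance genes were called higher.

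The adult globins kept nearly the same ratio to some erythroid genes in all libraries and not to others. Hbb-bs stood at 73.0, 58.4 and 67.2 times the FPKM of Alas2 at 2 months, and at 60.2, 64.6 and 63.7 times at 18 months, a range of 1.25-fold over 6 libraries in which Hbb-bs ranged over 166-fold in counts scaled by depth. Against Slc4a1 the ratio was 278, 49.5 and 270 at 2 months and 51.9, 57.7 and 57.8 at 18 months. In 2-month replicate 2 this ratio was near that of the 18-month libraries, whereas 2-month replicates 1 and 3 had less Slc4a1 per Hbb-bs. Those 2 libraries held 91 and 305 counts of Slc4a1. Against Tfrc, which most dividing cells use, the ratio ranged over 23.0-fold.

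Hbb-y was set against genes of cartilage in the same way. Per 1000 FPKM of Prg4, the lubricin of the joint surface, Hbb-y had 14.2, 17.8 and 10.2 FPKM at 2 months and 9.62, 10.5 and 9.65 at 18 months, a range of 1.85-fold. Per 1000 FPKM of Acan, the aggrecan core protein, it had 83.5, 62.9 and 65.4 at 2 months and 330, 579 and 577 at 18 months. Of the 6 chondrocyte genes set against Hbb-y, Prg4 gave the narrowest range and Col2a1, the main collagen of cartilage, the widest at 46.1-fold. Hbb-y thus fell with Prg4, and fell less than Acan and Col2a1. These ratios describe 6 libraries and carry no test.

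**Figure D4:**
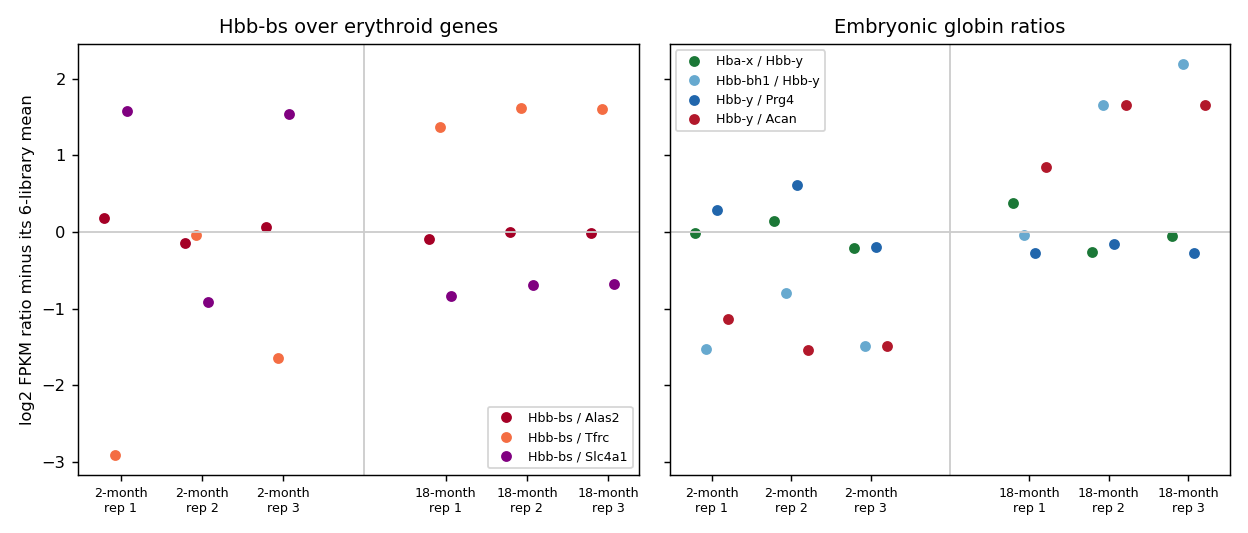
Log2 FPKM ratios in each library, each minus its mean over the 6 libraries, so that a ratio that stays the same lies at 0. Left, Hbb-bs over 3 genes of red cell precursors, where the ratio to Alas2 stays within a 1.25-fold range. Right, ratios of embryonic globins, where Hba-x over Hbb-y and Hbb-y over Prg4 stay within 1.56-fold and 1.85-fold and Hbb-bh1 over Hbb-y spans 13.2-fold.

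The genes whose pattern over the 6 libraries was most like the adult globins were found among 14011 genes with a mean of at least 1 FPKM, as the smallest Euclidean distance between centred log2 profiles of counts scaled by depth. They were Pik3cg at 0.304, Cytip at 0.308, Alas2 at 0.337, Tspo2 at 0.404 and Apbb1ip at 0.411. Pik3cg and Cytip are genes of white blood cells, and Alas2 and Tspo2 are erythroid. None of the 5 was called between the ages in edgeR, with adjusted p from 0.0542 to 0.0846. The same measure applied to Hbb-y and Hba-x, which was chosen after their values had been seen, gave Tmtc1 at 0.324, Nt5e at 0.346, Tnfrsf11b at 0.349, Car8 at 0.366 and Dixdc1 at 0.429. Nt5e encodes the surface enzyme CD73, and Tnfrsf11b the secreted decoy receptor osteoprotegerin. All 5 fell at 18 months, with log2 fold changes of -3.36 to -2.82 and adjusted p from 0.0108 to 0.0160 (edgeR). Both sets were picked for a like profile over these libraries, so their like changes follow from that choice and are not a separate result.

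Markers of other cells differed in direction between lists, and their part in the globin changes was not tested. Median log2 fold changes were positive for neutrophil, megakaryocyte, macrophage, B cell and endothelial markers, and negative for osteoblast and muscle markers. The calls of each list below are to be read beside 14.9% of all tested genes called higher and 21.3% called lower. Calls with 1 library left out are to be read beside the totals of those fits given above. Among the tissue's own markers, all 10 chondrocyte markers fell, with a median log2 fold change of -5.93. Together they took 6.27% to 7.29% of counts at 2 months, 0.781% in 18-month replicate 1 and 0.168% and 0.167% in 18-month replicates 2 and 3. Prg4 fell by 3.10 (adjusted p = 0.0322, edgeR), Acan fell by 5.91 (adjusted p = 0.00804), Col2a1 fell by 7.20 (adjusted p = 0.00114) and Matn3, a matrix protein of cartilage, fell by 12.25 (adjusted p = 0.00175). Matn3 was nearly absent at 18 months, with 7, 4 and 0 counts against 3790, 28594 and 15062 at 2 months, and Cnmd (chondromodulin) had 148, 17 and 3 counts at 18 months. The 18-month library with the most chondrocyte RNA was also that with the most Hbb-y and Hba-x. At 2 months this did not hold. There replicate 1 had the most Hbb-y and Hba-x but the lowest share of chondrocyte markers, at 6.27% against 6.83% and 7.29% in replicates 2 and 3.

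Neutrophil markers took 0.00130%, 0.368% and 0.00578% of counts in 2-month replicates 1, 2 and 3 and 4.12% to 4.45% at 18 months. None of the 12 was called in edgeR, where 3 had an unadjusted p under 0.05. The ages were apart for all 12, and the share of all genes that were apart was not counted. All 12 were called by limma on log2(FPKM + 0.1) and by edgeR without 2-month replicate 2. Those fits called 4365 and 5007 of all genes higher. S100a8 had 90, 33842 and 604 counts at 2 months and 472396 to 531213 at 18 months, and S100a9 had the highest FPKM of the list (log2 fold change 5.19, adjusted p = 0.1003). The library with the most adult globin at 2 months was thus also that with the most neutrophil RNA.

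Megakaryocyte and platelet markers took 0.000747% to 0.00706% of counts at 2 months and 0.139% to 0.210% at 18 months, and 7 of 8 rose, with a median of 5.98. Pf4, platelet factor 4, rose by 5.87 (adjusted p = 0.0247, edgeR) and Treml1, a platelet receptor, by 6.40 (adjusted p = 0.0100), while Ppbp, the most abundant, was not called (adjusted p = 0.0822). Macrophage markers took 0.00140% to 0.0469% at 2 months and 0.115% to 0.127% at 18 months, and 3 of 8 tested rose, led by C1qb, a complement subunit, at 3.43 (adjusted p = 0.0154). For macrophage markers, leaving out 2-month replicate 2 gave 8 calls, leaving out 2-month replicate 1 gave 5, leaving out 2-month replicate 3 gave 0 and leaving out any one 18-month library gave 1. In addition 4 megakaryocyte markers were called without 18-month replicate 2 or 3.

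None of the 10 B cell markers was called in edgeR, where 0 had an unadjusted p under 0.05, and 1 was called higher by limma. Their median was 0.60. Cd79a, a subunit of the B cell receptor complex, had 33, 2551 and 40 counts at 2 months and 1817 to 2748 at 18 months, and Cd79b had the highest FPKM (adjusted p = 0.483). Of 8 endothelial markers 2 rose, beside 14.9% of all tested genes, with a median of 0.67 over the list. Vwf, von Willebrand factor, rose by 4.22 (adjusted p = 0.00182, edgeR) and Pecam1 was not called (adjusted p = 0.337). Without 2-month replicate 2, 9 B cell and 7 endothelial markers were called higher, with medians of 5.45 and 2.75. B cell markers took 0.00105% to 0.0330% of counts at 2 months and 0.0202% to 0.0233% at 18 months, and endothelial markers 0.00209% to 0.0307% and 0.0345% to 0.0408%.

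Of 8 osteoblast markers 3 fell and 5 were not called, beside 21.3% of all tested genes called lower, with a median of -0.66. Their share was 0.382% to 0.583% of counts at 2 months and 0.120% to 0.127% at 18 months. Ibsp, bone sialoprotein, fell by 3.05 (adjusted p = 0.000751, edgeR). Without 2-month replicate 2 the osteoblast median was 0.87 and 4 of these markers were called higher. Of 6 tested skeletal muscle markers 4 fell, with a median of -3.63. Myh1, a fast myosin, fell from 13, 244 and 53 counts to 0 in every 18-month library, and Mylpf was not called (adjusted p = 0.270). Muscle markers took 0.00108% to 0.00612% of counts at 2 months and 0.000601% to 0.000757% at 18 months.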

How the data were processed

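Articular cartilage was sequenced as 3 libraries from 2-month and 3 from 18-month wild-type mice. RNA was selected by poly(A), ligated to adapters with molecular identifiers, made strand-specific and sequenced from both ends as 150-base reads. The deposited table holds raw whole-number counts and FPKM values, which the authors scaled by gene length and library. The submitters' processing notes name cutadapt 1.9, HISAT2 2.0.4, UMI-tools and StringTie 1.3.4d, beside DESeq2 and edgeR. The genome build is not given in the sources used here, and 33865 (99.7%) of gene identifiers were found in GENCODE M21 (GRCm38), 30925 of them at identical positions. FPKM and counts implied the same gene length across libraries to within 1.04-fold. No column with values per library was left out.

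In R 4.3.3, edgeR 4.0.16 (TMM, filterByExpr, quasi-likelihood test) was run on the counts of 20397 genes, without a replicate block, with Benjamini-Hochberg adjustment. As SE, the log2 fold change over the root of F was used. The test was checked on simulated data with far fewer changed genes and no outlying library. That check does not cover the setting in which the adult globins were called. Shares and ratios were compared by two-sided exact permutation tests, with 95% Wilson intervals. Profiles were compared on log2(CPM + 0.5). Alternatives were other size factors, other filters, DESeq2 1.42.0, limma 3.58.1 on log2(FPKM + 0.1), log2(FPKM + 1) or TPM made from FPKM, a replicate block and each library left out. Totals of 48171507 to 59085179 counts set the precision, and intervals cover counting error only. Coding sequences were aligned with Biopython 1.88, and tables and figures were made with Python 3.11.15, pandas 2.3.3 and matplotlib 3.10.9. Gene names came from the deposited table.

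The members, the gene lists and the tests were chosen with earlier results of these data known. Every member was named, every gene of the lists of other globins and of globin control, and from each other list its most abundant gene, its largest called changes and the genes that define it. Listed genes not in the table, among them Ahsp and Hbb-bh2, were not analysed here. Some list members named by this rule are not reported here. The ratios of embryonic globins to cartilage genes and the genes most like Hbb-y and Hba-x were chosen after values had been seen.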

Additional observations from a re-analysis of the deposited data

How the results depend on the processing

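All 7 globin genes kept their direction under every alternative, and Hbb-y and Hbb-bh1 were called under each. The calls of the adult genes sat at the threshold. Without a count filter, Hba-a1, Hba-a2 and Hbb-bs had log2 fold changes of 3.63, 3.49 and 3.79 and 0 members were called higher. With scaling by total counts alone, Hba-a2 (3.50) and Hbb-bs (3.79) lost the call and 1 member was called higher. With a mean of at least 1 FPKM, Hba-a2 (3.39) and Hbb-bs (3.68) lost it and again 1 was called. Hbb-bt gained the call with RLE size factors (3.77), DESeq2 (3.77, adjusted p = 0.000475), limma on log2(FPKM + 0.1) (4.98), log2(FPKM + 1) (4.97) and TPM (4.54), and with the replicate block (5.01, adjusted p = 0.0408). On TPM the median of all genes was -0.33, and the globin values are to be read against it. Same-numbered libraries of the 2 ages correlated at 0.07, 0.07 and -0.06 in their deviations, so the numbers do not pair them. The smallest p of the paired test of a share is 0.25.

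With each library left out in turn, the log2 fold change ran from 3.11 to 5.85 for Hba-a1, 2.97 to 5.71 for Hba-a2, 3.25 to 6.07 for Hbb-bs, 3.16 to 6.03 for Hbb-bt and -4.77 to -2.80 for Hba-x, and the members called higher from 0 to 4. The highest value of each adult gene came without 2-month replicate 2, when 5007 in place of 3047 genes were called higher. The number of all genes called lower was 4354, and 2217 in limma on log2(FPKM + 1).

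With limma on log2(FPKM + 0.1), 4365 of 21539 genes were called higher. The number was 3 for other globins, 10 for switching factors, 22 for red cell membrane genes, 6 for clearance genes, 12 for neutrophil, 1 for B cell and 6 for macrophage markers. Medians were 4.92 for switching factors, 8.14 for neutrophil, 2.90 for B cell, -2.20 for muscle and 0.0386 for osteoblast markers. With the replicate block, medians were 5.85 for switching factors, 5.70 for membrane genes, 3.03 for clearance genes, 8.90 for neutrophil, 3.91 for B cell, 7.11 for megakaryocyte and 0.0253 for osteoblast markers. Under the block 1 neutrophil and 5 macrophage markers were called higher, beside 2523 of all 20397 tested genes. The 1 switching factor called lower, Sox6, lost its call with total counts alone, limma and the block (0 called).

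Over fits without 1 library, medians ran from 1.04 to 1.81 for other globins, 0.30 to 0.74 for globin control, 3.04 to 7.13 for switching factors, 2.86 to 6.75 for membrane genes, 2.02 to 3.76 for clearance genes, 4.39 to 10.23 for neutrophil, 0.0267 to 5.45 for B cell, 5.49 to 8.21 for megakaryocyte, 0.15 to 2.75 for endothelial, -1.10 to 0.87 for osteoblast and -7.24 to -5.53 for chondrocyte markers. Numbers called higher ran from 0 to 3 for other globins, 0 to 10 for switching factors, 4 to 22 for membrane genes, 2 to 7 for clearance genes, 0 to 12 for neutrophil, 0 to 9 for B cell, 4 to 8 for megakaryocyte, 0 to 8 for macrophage, 2 to 7 for endothelial and 0 to 4 for osteoblast markers. Numbers called lower ran from 1 to 2 for other globins and 0 to 1 for switching factors. Where a fit without 1 library holds fewer samples, its test has less power by construction, and the cause of the other changes was not tested.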
